A study of Homo sapiens with 12 samples.

Results

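The genes described here are 8 genes of nucleotide excision repair that lie outside the TFIIH complex: ERCC4, ERCC1, ERCC5, XPA, RAD23B, DDB1, ERCC6 and ERCC8. They are 8 of the 19974 Ensembl genes in the count table, and all 8 passed the filter on low counts. The set was selected on a measured value, the log2 fold change of ERCC4, which was among the largest decreases in earlier results of these data. The ERCC4 change is therefore given as a description, without a test, and the counts for THZ1 cover the other 7 genes.

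The study used 2 established lines of human retinoblastoma, Y79 and WERI-Rb-1 (WERI below), and exposed them to 50 nM THZ1 or to 0.1% DMSO for 12 h. THZ1 is a covalent inhibitor of the transcription kinase CDK7 with CDK12 and CDK13 as further targets, and DMSO is its solvent. The groups are WERI with THZ1, WERI with DMSO, Y79 with THZ1 and Y79 with DMSO, with 3 samples each and 12 libraries in all. The labels give the genotype of all 4 groups as WT, and all cells were grown in a serum-containing RPMI medium. The labels do not say whether the samples of a group were separate cultures or parallel wells, so p-values measure the spread between these samples, which may be technical.

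Nucleotide excision repair removes bulky lesions, such as those made by ultraviolet light, by cutting out a short stretch of the damaged strand and filling the gap. Lesions are found either genome-wide, by XPC with RAD23B and by the DDB1 and DDB2 pair, or in transcribed genes, where a stalled RNA polymerase II recruits ERCC6 and ERCC8. Both routes then use TFIIH to open the DNA, XPA to hold the complex, and the nucleases ERCC5 and ERCC1-ERCC4 to cut on either side of the lesion. TFIIH also carries CDK7, the kinase that THZ1 inhibits, as part of its role in transcription.

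Total counts per library ranged from 29677575 to 37433574. The second THZ1 library of Y79 stood apart: the chi-square of its counts per degree of freedom was 78.5 and 82.7 against its replicates, and 7.47 to 11.7 for all other pairs within a group. Messenger RNAs of the mitochondrial genome took 9.79% to 11.2% of counts in WERI with THZ1 against 3.74% to 3.93% in WERI with DMSO, and 8.44% to 9.73% in Y79 with THZ1 against 3.94% to 4.46% in Y79 with DMSO. All 7 photoreceptor-lineage and retinoblastoma markers looked at, CRX and OTX2 among them, were detected, with summed levels of 1523 to 1560 CPM in WERI with THZ1, 1915 to 1975 CPM in WERI with DMSO, 827 to 893 CPM in Y79 with THZ1 and 1462 to 1482 CPM in Y79 with DMSO. Of the markers of other cells, the 5 stromal genes summed to 51.7 to 54.1 CPM in WERI with THZ1 and 23.5 to 26.3 CPM in WERI with DMSO, where DCN was at 0, and to at most 4.03 CPM in Y79, where COL3A1 was at 0. Blood genes summed to at most 4.26 CPM, and glia and pigment epithelium genes to at most 5.49 CPM. CPM is the count scaled to counts-per-million by TMM factors, a scaling that takes the typical gene as unchanged. The part of these shifts in the results below was not tested.

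The promoters of the gene with the largest decrease, ERCC4, and of the 2 genes with the largest increases, XPA and DDB1, are shown because these 3 carry the main contrast within the set. Each is the RefSeq window of GRCh38.p14 from 250 bases before to 50 bases after the annotated start, read along the gene. The windows are chr16:13919904-13920203 on the plus strand for ERCC4, chr9:97697291-97697590 on the minus strand for XPA and chr11:61333056-61333355 on the minus strand for DDB1. The DDB1 window lies inside the GENCODE v29 gene, which extends further upstream, to chr11:61342596. Capitals mark TTCGGC and the ETS core CCGGAA in ERCC4, and the GC box GGGCGG, or its reverse complement CCGCCC, in XPA and DDB1.
ERCC4 promoter: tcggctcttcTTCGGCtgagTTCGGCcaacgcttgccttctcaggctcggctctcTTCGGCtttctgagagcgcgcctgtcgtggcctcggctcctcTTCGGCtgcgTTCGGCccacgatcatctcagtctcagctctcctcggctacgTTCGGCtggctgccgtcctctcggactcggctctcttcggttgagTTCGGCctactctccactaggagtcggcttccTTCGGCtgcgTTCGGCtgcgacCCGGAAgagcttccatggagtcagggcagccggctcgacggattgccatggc
XPA promoter: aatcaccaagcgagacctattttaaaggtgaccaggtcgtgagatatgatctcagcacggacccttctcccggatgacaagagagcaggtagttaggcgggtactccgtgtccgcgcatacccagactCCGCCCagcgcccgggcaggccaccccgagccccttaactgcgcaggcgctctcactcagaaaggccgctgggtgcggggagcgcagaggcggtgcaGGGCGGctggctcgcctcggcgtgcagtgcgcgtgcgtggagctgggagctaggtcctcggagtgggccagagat
DDB1 promoter: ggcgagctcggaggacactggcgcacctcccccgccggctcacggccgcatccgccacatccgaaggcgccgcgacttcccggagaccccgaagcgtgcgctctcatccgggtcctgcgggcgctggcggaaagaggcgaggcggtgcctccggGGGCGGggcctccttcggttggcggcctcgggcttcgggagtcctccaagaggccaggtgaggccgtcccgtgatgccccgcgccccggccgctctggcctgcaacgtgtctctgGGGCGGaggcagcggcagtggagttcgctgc

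The ERCC4 window carried 9 copies of TTCGGC with both strands searched, and it was the only 1 of 35116 RefSeq windows with that many, while 7.22% of windows held at least 1. This motif was picked after the sequence had been read. The same window held 1 ETS core, which 17.2% of windows have, and no GC box. The XPA and DDB1 windows held 2 GC boxes each, a motif present in 45.0% of windows, and no ETS core. All 8 genes had RefSeq windows, 13 in all, because ERCC1, RAD23B and ERCC6 have several starts. The GC box was in 8 of these 13 windows, among them both ERCC6 windows and those of ERCC5 and ERCC8. The ETS core was also in the ERCC5 window and in an ERCC1 window. A link between these motifs and the THZ1 response was not tested. TATAAA was in 0 of these 13 windows, against 11.5% of all windows, and CACGTG was in 1, an ERCC6 window, against 7.26%. No match overlapped another in the printed windows.

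Within 12 h of THZ1, the nuclease pair ERCC1-ERCC4 diverged at the RNA level in both lines. ERCC4 encodes the catalytic subunit (XPF), which cuts on one side of the lesion, and lies at chr16:13920157-13952345 on the plus strand (GRCh38, GENCODE v29). In WERI it had 65, 68 and 73 counts with THZ1, against 888, 822 and 1024 counts with DMSO. In Y79 it had 64, 38 and 43 counts with THZ1, against 924, 779 and 799 counts with DMSO. Every THZ1 library was far below every DMSO library in both lines.

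As scaled levels, ERCC4 averaged 2.37 ± 0.134 CPM in WERI with THZ1 and 21.0 ± 1.15 CPM in WERI with DMSO (SD, n = 3 each), a log2 fold change of -3.15 ± 0.130 (SE), or 8.88-fold lower. In Y79 it averaged 1.98 ± 0.287 CPM with THZ1 and 20.2 ± 1.49 CPM with DMSO (SD, n = 3 each), a log2 fold change of -3.35 ± 0.134 (SE), or 10.2-fold lower. Among 14865 tested Ensembl genes, ERCC4 had the 71st lowest log2 fold change in WERI and the 148th lowest in Y79. The median gene stood at -0.11 in WERI and -0.09 in Y79. In RNA from whole cultures, fewer cells with a transcript and less of it per cell cannot be told apart. An antisense gene, AC010401.1, covers 25.7% of the ERCC4 exon bases, and without strand its reads cannot be told apart from those of ERCC4.

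ERCC1, the partner that binds DNA and holds ERCC4 in place, was higher with THZ1 under TMM scaling, while with library-size scaling it was not called in WERI and lower in Y79, and with scaling to mitochondrial mRNAs it was lower in both lines (chr19:45407333-45478828, minus strand). WERI libraries held 53.2, 58.2 and 60.2 CPM of ERCC1 with THZ1, against 43.1, 44.2 and 43.5 CPM with DMSO. Y79 libraries held 55.2, 54.7 and 47.4 CPM with THZ1, against 40.8, 39.9 and 43.0 CPM with DMSO. All THZ1 libraries were above all DMSO libraries of the same line. Here and below, the share of all tested genes without such overlap is not given, so non-overlap only describes the libraries. The log2 fold change was 0.39 ± 0.077 (SE) in WERI (edgeR's quasi-likelihood test, adjusted p = 0.000543) and 0.35 ± 0.078 in Y79 (adjusted p = 0.00137), and it turned negative with library-size scaling, at -0.056 in WERI (adjusted p = 0.561) and -0.22 in Y79 (adjusted p = 0.0261), and with scaling to mitochondrial mRNAs, at -1.51 in WERI and -1.36 in Y79. CD3EAP, on the opposite strand, shares 28.6% of the ERCC1 exon bases.

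The ratio of the partners does not depend on the scaling. There were 0.0427, 0.0396 and 0.0418 ERCC4 counts per ERCC1 count in WERI with THZ1, against 0.483, 0.453 and 0.512 in WERI with DMSO, and the THZ1 mean was 0.0858 of the DMSO mean. In Y79 the ratio was 0.0418, 0.0337 and 0.0377 with THZ1, against 0.538, 0.490 and 0.447 with DMSO, and the THZ1 mean was 0.0767 of the DMSO mean. The THZ1 ratios of both lines lay in one narrow range, and so did the DMSO ratios. The drop is a description, since ERCC4 was chosen for it.

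**Figure D1:**
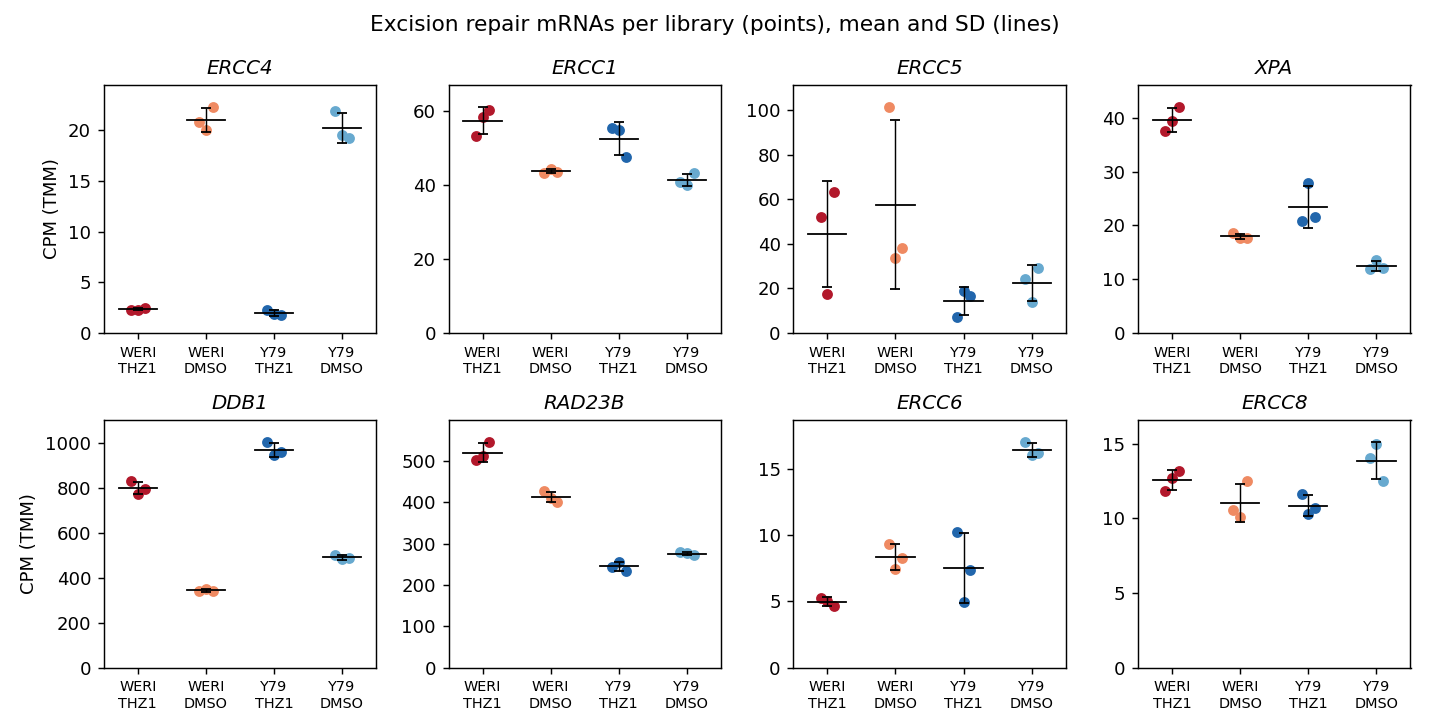
Level of each of the 8 genes in CPM (TMM scaled) in every library of the 4 groups, each panel with its own axis from 0, with lines at the group mean and bars of 1 SD. ERCC4 is between 1.79 and 2.52 CPM in the 6 THZ1 libraries and between 19.2 and 22.3 CPM in the 6 DMSO libraries, while XPA and DDB1 are higher with THZ1 in both lines under this scaling and lower under scaling to mitochondrial mRNAs.

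ERCC5 (XPG), the nuclease that cuts on the other side of the lesion, could not be measured on its own (chr13:102807146-102876001, plus strand). Its counts in WERI were 1492, 521 and 1839 with THZ1, against 4310, 1379 and 1755 with DMSO. In Y79 they were 199, 392 and 400 with THZ1, against 1017, 552 and 1216 with DMSO. In CPM the THZ1 and DMSO libraries overlapped in both lines, and the coefficient of variation within the 4 groups ran from 35.0% to 65.5%. The test gave a log2 fold change of -0.38 ± 0.605 (SE) in WERI (adjusted p = 0.625) and -0.66 ± 0.638 in Y79 (adjusted p = 0.397), so a change of either sign was not detectable.

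The annotation holds a readthrough gene, BIVM-ERCC5, which joins ERCC5 to its upstream neighbour BIVM and shares 63.2% of the ERCC5 exon bases. Its counts in WERI were 552, 2097 and 1 with THZ1, against 1145, 4761 and 5163 with DMSO. In Y79 they were 470, 2 and 0 with THZ1, against 606, 1367 and 361 with DMSO. Libraries with a low ERCC5 count tended to have a high readthrough count in the same group: the second WERI library with THZ1 had the lowest ERCC5 count and the highest readthrough count of its group, and the third had the reverse. The sources used here do not give how reads were divided between the overlapping genes.

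Both genes were therefore also summed, a choice made after these counts had been seen. The sum was 2044, 2618 and 1840 counts in WERI with THZ1, against 5455, 6140 and 6918 counts with DMSO. In Y79 it was 669, 394 and 400 counts with THZ1, against 1623, 1919 and 1577 counts with DMSO. The groups no longer overlapped in either line. In CPM the sum averaged 74.6 ± 12.9 in WERI with THZ1 and 143 ± 12.7 with DMSO, and 19.9 ± 3.82 in Y79 with THZ1 and 41.6 ± 5.71 with DMSO (SD, n = 3 each). The log2 fold change was -0.94 ± 0.145 (SE; edgeR, adjusted p = 7.2e-05) in WERI and -1.06 ± 0.152 (adjusted p = 3.32e-05) in Y79. With BIVM added as well, the log2 fold changes were smaller, at -0.31 ± 0.063 (SE; adjusted p = 0.000669) in WERI and -0.25 ± 0.064 (adjusted p = 0.00323) in Y79. Without the second THZ1 library of Y79 the 2-gene sum changed by -1.05 in Y79 (adjusted p = 0.0027).

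**Figure D2:**
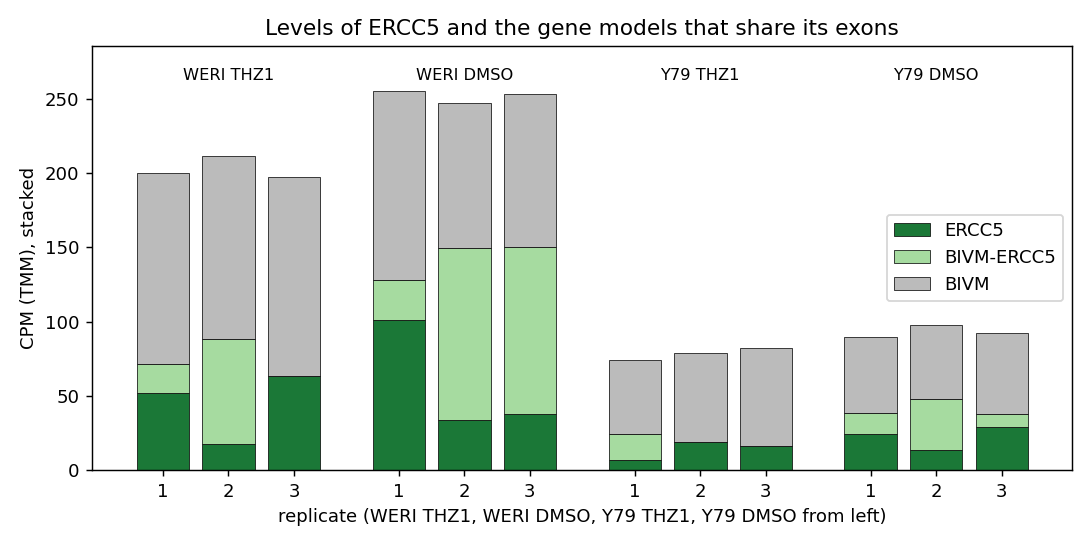
Levels in CPM (TMM scaled) of ERCC5, the readthrough gene BIVM-ERCC5 and BIVM in each library, stacked, with the 4 groups side by side. The split between ERCC5 and BIVM-ERCC5 differs from library to library, while the coefficient of variation of the 3-gene sum in CPM is 1.62% to 5.25% within a group.

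XPA and DDB1 had the largest increases of the set with TMM and with library-size scaling, and both were lower than in DMSO with scaling to mitochondrial mRNAs. XPA binds damaged DNA and TFIIH and positions the nucleases (chr9:97674909-97697357, minus strand). XPA was at 37.5, 39.5 and 41.9 CPM in WERI with THZ1, against 18.6, 17.7 and 17.6 CPM with DMSO. It was at 20.7, 27.8 and 21.5 CPM in Y79 with THZ1, against 11.9, 13.6 and 12.1 CPM with DMSO. No THZ1 library overlapped a DMSO library of its line. The log2 fold change was 1.14 ± 0.112 (SE; edgeR, adjusted p = 7.77e-07) in WERI, or 2.21-fold, and 0.90 ± 0.114 (adjusted p = 8.4e-06) in Y79, or 1.86-fold. With mitochondrial scaling these became -0.75 in WERI and -0.82 in Y79. The highest Y79 value came from the second THZ1 library, and without it the Y79 change was 0.72.

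DDB1 is the adaptor that joins DDB2 or ERCC8 to the CUL4 ubiquitin ligases, and so serves both ways of finding a lesion (chr11:61299451-61342596, minus strand). The WERI levels of DDB1 were 831, 774 and 797 CPM with THZ1, against 341, 352 and 342 CPM with DMSO. The Y79 levels were 1004, 945 and 962 CPM with THZ1, against 503, 484 and 487 CPM with DMSO. The groups were far apart in both lines. THZ1 over DMSO gave a log2 fold change of 1.21 ± 0.064 (SE; edgeR, adjusted p = 2.74e-09) in WERI, or 2.32-fold, and 0.98 ± 0.064 (adjusted p = 1.01e-08) in Y79, or 1.98-fold. With mitochondrial scaling it was -0.69 in WERI and -0.73 in Y79.

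RAD23B, which binds XPC and protects it from degradation, rose in WERI and fell in Y79 with TMM scaling, while in WERI it was not called with library-size scaling and lower with mitochondrial scaling (chr9:107283137-107332194, plus strand). RAD23B reached 501, 512 and 545 CPM in WERI with THZ1, against 426, 410 and 401 CPM with DMSO. It reached 244, 256 and 233 CPM in Y79 with THZ1, against 279, 277 and 272 CPM with DMSO. The THZ1 libraries were all above the DMSO libraries in WERI and all below them in Y79. The log2 fold change was 0.33 ± 0.065 (SE; edgeR, adjusted p = 0.000465) in WERI, where it turned to -0.12 with library-size scaling (adjusted p = 0.105) and -1.56 with mitochondrial scaling, and -0.17 ± 0.065 (adjusted p = 0.032) in Y79. The Y79 call is not secure: it was lost in 10 of 22 alternative analyses. They include leaving out the first or second DMSO library, with adjusted p of 0.0794 and 0.067, or the first or the third THZ1 library, with adjusted p of 0.0524 and 0.0873.

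ERCC6 (CSB), the DNA-dependent ATPase that recognises a stalled polymerase, fell in both lines under every scaling tried (chr10:49455368-49539538, minus strand). In WERI it had 5.28, 5.01 and 4.62 CPM with THZ1, against 9.36, 7.42 and 8.29 CPM with DMSO. In Y79 it had 10.2, 4.99 and 7.36 CPM with THZ1, against 17.0, 16.0 and 16.2 CPM with DMSO. The groups did not overlap in either line, although the Y79 libraries with THZ1 were spread widely, with the second library the lowest. These levels gave a log2 fold change of -0.75 ± 0.200 (SE; edgeR, adjusted p = 0.0051) in WERI and -1.12 ± 0.198 (adjusted p = 0.000193) in Y79. Without the second THZ1 library it was -0.93 in Y79 (adjusted p = 4.74e-05).

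ERCC8 (CSA), the substrate receptor that ERCC6 brings to the polymerase, was not called in WERI and fell in Y79 with TMM scaling, and was lower in both lines with mitochondrial scaling (chr5:60873831-60945073, minus strand). In WERI it had 11.9, 12.7 and 13.2 CPM with THZ1, against 10.5, 10.1 and 12.5 CPM with DMSO, and the groups overlapped. In Y79 it had 11.6, 10.3 and 10.7 CPM with THZ1, against 14.0, 15.0 and 12.5 CPM with DMSO, with all THZ1 libraries lower. The test gave a log2 fold change of 0.19 ± 0.118 (SE; edgeR, adjusted p = 0.186) in WERI and -0.35 ± 0.119 (adjusted p = 0.0189) in Y79. The Y79 call was lost without the second DMSO library (adjusted p = 0.0724) and in 3 of the other alternatives. A pseudogene, GNL3LP1, lies over 28.3% of the ERCC8 exon bases on the same strand.

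Counted over the 7 genes other than ERCC4, 4 rose in WERI with THZ1 (ERCC1, XPA, RAD23B and DDB1), where 27.7% of all 14865 tested genes were called higher, and 1 fell (ERCC6), where 37.2% were called lower. With mitochondrial scaling, 0 of the 7 were higher and 7 were lower, where 111 of all tested genes were higher and 13328 lower. The median log2 fold change of these 7 genes was 0.33, beside -0.11 over all genes. In Y79 with THZ1, 3 rose (ERCC1, XPA and DDB1), beside 29.9% of all genes, and 3 fell (ERCC6, ERCC8 and RAD23B), beside 38.5% of all genes, while mitochondrial scaling gave 0 higher and 7 lower, beside 283 higher and 12188 lower of all tested genes. Without the second THZ1 library of Y79, 3 of the 7 were again higher and 3 lower, and ERCC4 stood at -3.33. The median of the 7 was -0.17, beside -0.09 over all genes. The median of all genes moved to -0.56 in WERI and -0.65 in Y79 with library-size scaling, and to -2.01 and -1.80 with mitochondrial scaling. A change of scaling moves all genes of a comparison by about the same amount.

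**Figure D3:**
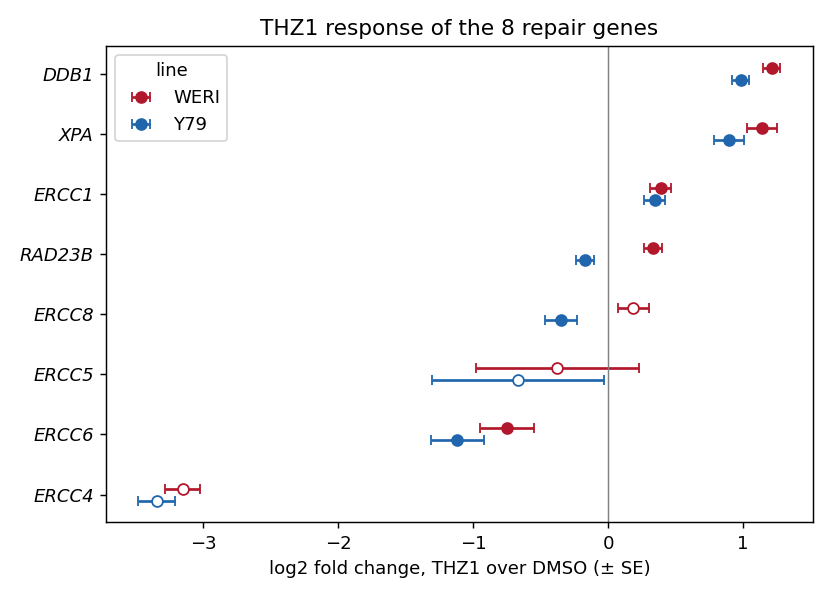
Log2 fold change of THZ1 over DMSO for the 8 genes in WERI and Y79, with bars of 1 SE; filled points were called at an adjusted p under 0.05, and open points were not called or, for ERCC4, not tested. With TMM scaling the genes run from DDB1 at 1.21 in WERI and 0.98 in Y79 to ERCC4 at -3.15 in WERI and -3.35 in Y79, and all of them are below 0 with mitochondrial scaling.

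**Figure D4:**
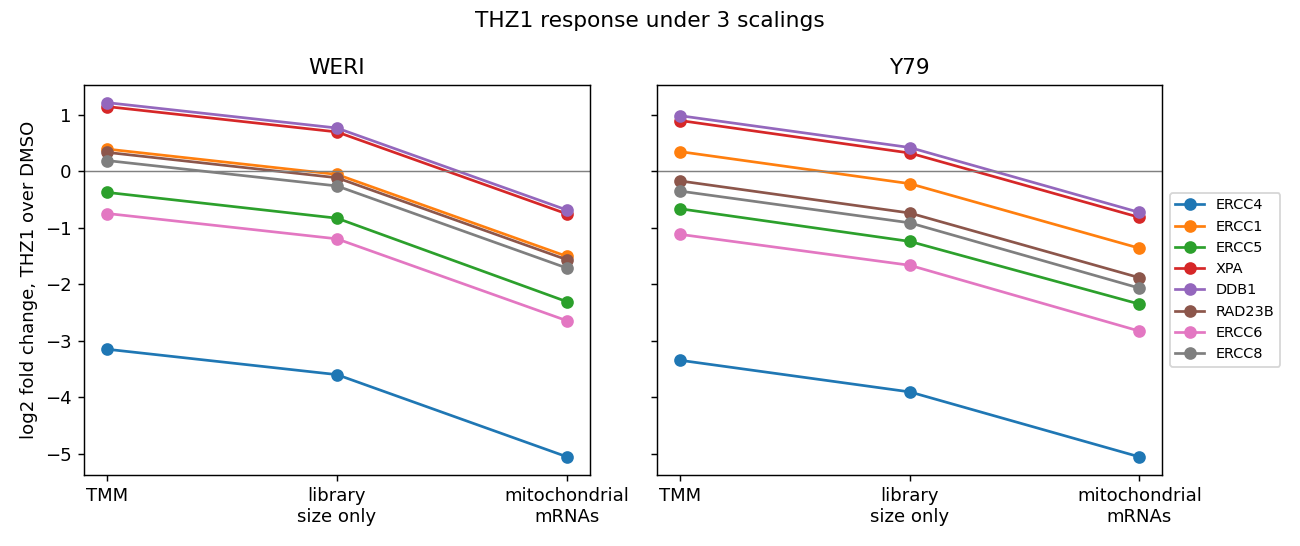
Log2 fold change of THZ1 over DMSO for each gene under TMM factors, library size only and mitochondrial mRNAs, with WERI on the left and Y79 on the right; lines join the values of one gene. A change of scaling shifts all genes of a comparison by about the same amount, and XPA and DDB1 lie above 0 with TMM factors and library size and below 0 with mitochondrial mRNAs.

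The 2 lines were also compared in their THZ1 response, as the change in Y79 minus the change in WERI. Of the 7 genes, 2 were lower, ERCC8 and RAD23B, beside 13.2% of all genes. Without the second THZ1 library of Y79, 4 were lower, while the number lower over all genes went from 1965 to 3029. In the fit of all 12 libraries, 0 were higher, beside 8.74% of all genes, and 5 were not called. At an unadjusted p under 0.05 edgeR also gave 0 higher, and DESeq2 gave 0. The difference was above 0 for 0 of the 7 genes with either tool, so a looser threshold could add no higher gene. RAD23B differed by -0.51 ± 0.091 (SE; adjusted p = 0.00195), a call lost only under mitochondrial scaling (adjusted p = 0.13) among 21 alternatives. ERCC8 differed by -0.54 ± 0.167 (SE; adjusted p = 0.0381), and this call was lost in 10 of 21 alternatives, with adjusted p between 0.0169 and 0.313. For ERCC8, leaving out any of 7 single libraries ended it: the first or second DMSO library of either line, the second or the third THZ1 library of WERI, or the third THZ1 library of Y79, with an adjusted p of up to 0.0996.

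The remaining genes did not pass the test of the difference. DDB1 differed by -0.23 ± 0.090 (SE; edgeR, adjusted p = 0.0926) and XPA by -0.25 (adjusted p = 0.318), and without the second THZ1 library of Y79 both were called, DDB1 at -0.21 (adjusted p = 0.0164) and XPA at -0.39 (adjusted p = 0.0264). ERCC6 differed by -0.37 ± 0.280 (SE; adjusted p = 0.41) and ERCC1 by -0.05 (adjusted p = 0.844). The 2-gene sum of ERCC5 and its readthrough differed by -0.12 (adjusted p = 0.763). ERCC4 differed by -0.19 ± 0.182 (SE), given without a test. A p above the threshold does not show that the lines respond alike.

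Without THZ1 the lines already differed in several of the 8 genes. In DMSO, 3 of 8 were higher in Y79 than in WERI (ERCC6, DDB1 and ERCC8), beside 32.3% of all genes, and 2 were lower (RAD23B and XPA), beside 32.6% of all genes. ERCC6 had the largest called difference, with 16.4 ± 0.528 CPM in Y79 and 8.36 ± 0.972 CPM in WERI (SD, n = 3 each), a log2 fold change of 0.97 ± 0.194 (SE; edgeR, adjusted p = 0.00062). DDB1 had 491 ± 10.4 CPM in Y79 and 345 ± 5.66 CPM in WERI (0.51 ± 0.064 on the log2 scale, adjusted p = 9.63e-06). RAD23B had 276 ± 3.64 CPM in Y79 and 412 ± 12.7 CPM in WERI (-0.58 ± 0.065, adjusted p = 3.16e-06). XPA had 12.5 ± 0.958 CPM in Y79 and 17.9 ± 0.534 CPM in WERI (-0.52 ± 0.113, adjusted p = 0.00119).

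ERCC8 was the least secure of these, at 0.33 ± 0.117 (SE; edgeR, adjusted p = 0.0264): the call was lost without the first or second DMSO library of either line, with an adjusted p of up to 0.107, and under 2 other alternatives. The nuclease pair did not differ detectably, with -0.06 ± 0.113 for ERCC4 (adjusted p = 0.694) and -0.08 for ERCC1 (adjusted p = 0.385). ERCC5 alone gave -1.36 ± 0.617 (adjusted p = 0.0865). Summed with its readthrough it was lower in Y79, by -1.78 ± 0.148 (adjusted p = 1.95e-07). With BIVM added as well, the difference between the lines was -1.43 ± 0.064 (adjusted p = 2.65e-10).

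Levels were set against each other per kilobase of summed exons. RAD23B was the highest in DMSO, at 89.3 ± 2.75 CPM per kb in WERI and 59.7 ± 0.789 CPM per kb in Y79, followed by DDB1 at 24.7 ± 0.405 CPM per kb in WERI and 35.2 ± 0.749 CPM per kb in Y79 (SD, n = 3 each). ERCC6 was the lowest in DMSO, at 0.499 ± 0.0581 CPM per kb in WERI and 0.979 ± 0.0315 CPM per kb in Y79. With THZ1, ERCC4 took the last place, at 0.280 ± 0.0158 CPM per kb in WERI, where its range overlapped that of ERCC6, and 0.234 ± 0.0339 CPM per kb in Y79, where it did not. In Y79 with THZ1, DDB1 (69.6 ± 2.17 CPM per kb) was above RAD23B (53.0 ± 2.52 CPM per kb). Neighbours whose ranges overlapped in DMSO were ERCC1 and ERCC5 in WERI, and ERCC1 and XPA, ERCC5 and ERCC8, and ERCC8 and ERCC4 in Y79. With THZ1, the ranges of ERCC5 and ERCC8 overlapped in both lines. The order of DDB1 and RAD23B depends on the length used: DDB1 has 13.95 kb of summed exons but a longest transcript of 4.506 kb, and per kb of longest transcript DDB1 was above RAD23B in every group but WERI with DMSO.

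Ratios of partners within a library showed which pairs went apart, with no scaling involved. There were 2.55 ± 0.303 ERCC8 counts per ERCC6 count in WERI with THZ1 and 1.33 ± 0.193 in WERI with DMSO, and 1.55 ± 0.468 in Y79 with THZ1 and 0.846 ± 0.0828 in Y79 with DMSO (SD, n = 3 each). The ratio was 1.91-fold higher with THZ1 in WERI and 1.83-fold higher in Y79, without overlap in either line. RAD23B counts per XPC count, XPC being the sensor that RAD23B binds, were 20.7 ± 1.10 in WERI with THZ1 and 6.41 ± 0.167 with DMSO, and 6.85 ± 0.507 in Y79 with THZ1 and 4.26 ± 0.0361 with DMSO. That ratio was 3.22-fold higher in WERI and 1.61-fold higher in Y79. DDB1 counts per count of DDB2, the subunit that touches the lesion, were 79.2 ± 5.09 in WERI with THZ1 and 25.9 ± 1.20 with DMSO, and 31.2 ± 3.84 in Y79 with THZ1 and 13.1 ± 0.788 with DMSO. With 3 libraries against 3, an exact two-sided permutation test cannot give a p below 0.1, so none is given for these ratios.

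**Figure D5:**
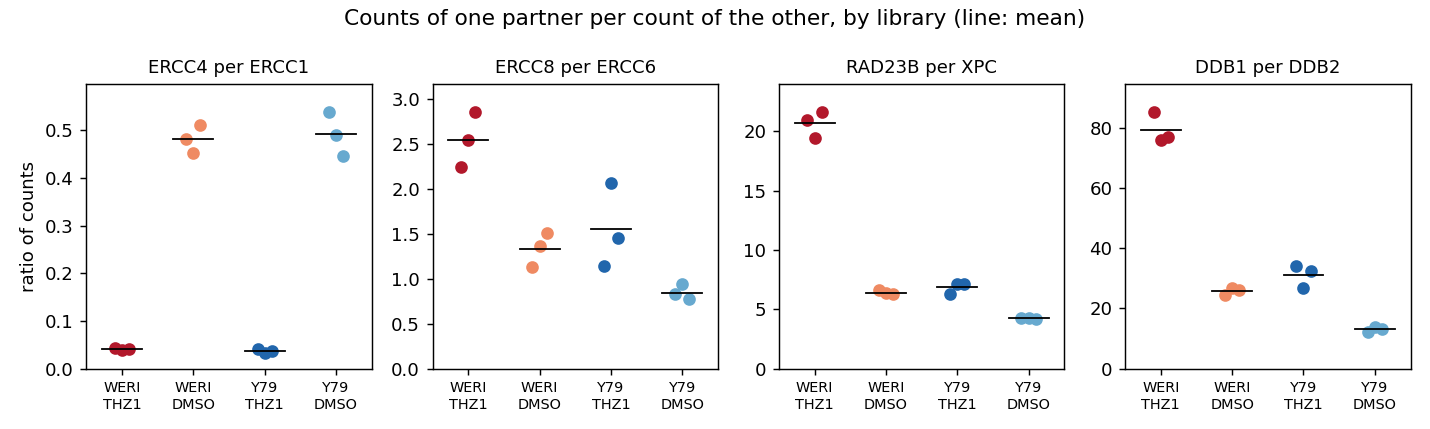
Counts of one gene per count of its partner in each library, with the line at the group mean, for ERCC4 per ERCC1, ERCC8 per ERCC6, RAD23B per XPC and DDB1 per DDB2; axes start at 0. With THZ1 the first ratio is lower in every library of both lines and the other three are higher in every library of both lines.

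The rest of the pathway was read from 5 lists, with log2 fold changes of the same edgeR test in brackets and a call at an adjusted p under 0.05. With TMM scaling, the counts of each list are read beside the shares over all tested genes. These are 27.7% higher and 37.2% lower in WERI and 29.9% higher and 38.5% lower in Y79. For library-size scaling, the matching numbers are 2221 higher and 7961 lower of 14865 tested genes in WERI, and 2175 and 8334 in Y79. Of 7 other genes of damage recognition, 4 rose and 3 fell in WERI (median log2 fold change 0.32), and 1 rose and 4 fell in Y79 (median -0.26). With library-size scaling 1 was higher in WERI. XPC had a log2 fold change of -1.35 in WERI (25.1 ± 1.22 CPM with THZ1 and 64.3 ± 0.308 CPM with DMSO) and -0.85 in Y79 (35.9 ± 3.09 CPM with THZ1 and 64.7 ± 0.345 CPM with DMSO), so the sensor and RAD23B moved oppositely in WERI under TMM scaling. DDB2 fell in WERI (-0.40) and Y79 (-0.26), opposite to DDB1 under TMM scaling. CETN2, a small subunit of the XPC complex, rose in WERI (1.66) and Y79 (1.71). CUL4A, a ligase scaffold that DDB1 binds, fell in WERI (-0.19) and Y79 (-0.62). CUL4B, the other such scaffold, rose in WERI (0.32) and was not called in Y79 (-0.11). RBX1, the ring subunit of these ligases, rose in WERI (0.55) and was not called in Y79.

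Of 7 other genes of transcription-coupled repair, 3 rose and 3 fell in WERI (median -0.08), and 3 rose and 2 fell in Y79 (median -0.03). HMGN1, a nucleosome-binding protein, rose in WERI (1.49) and Y79 (1.28), as did TCEA1, an elongation factor for arrested polymerase, at 1.04 in WERI and 0.71 in Y79. USP7, the ubiquitin protease that stabilises ERCC6, fell in WERI (-1.18) and Y79 (-1.25), as ERCC6 did. STK19 fell in WERI (-0.87) and was not called in Y79. ELOF1, an elongation factor, fell in WERI (-0.64) and Y79 (-0.39). Of the 7 genes of core TFIIH, 2 rose and 3 fell in each line, with 1 higher in Y79 without its second THZ1 library (medians -0.08 in WERI and -0.07 in Y79). GTF2H1 fell in WERI (-1.47) and Y79 (-1.86), and so did GTF2H2 (-0.54 in WERI and -0.92 in Y79), which has near-identical copies that can split its reads. ERCC2, a helicase of the complex, rose in WERI (0.37) and Y79 (0.36), GTF2H3 in WERI (0.37) and GTF2H5 in Y79 (0.40). With library-size scaling 0 TFIIH genes were higher in either line, where 2221 of all tested genes were higher in WERI and 2175 in Y79. In Y79 that scaling gave 1 transcription-coupled gene higher and 4 lower, beside 8334 lower over all genes.

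Of 21 genes of gap filling and ligation, which act after the nucleases, 7 rose and 11 fell in WERI (median -0.26), and 8 rose and 10 fell in Y79 (median -0.24, and -0.59 without the second THZ1 library). With library-size scaling 3 were higher in Y79, beside 2175 over all genes. POLD3, a polymerase delta subunit, fell in WERI (-2.51) and Y79 (-2.22), nearest to the ERCC4 decrease among the genes named from these 5 lists. RPA2, of the single-strand binding complex, fell in WERI (-1.60) and Y79 (-1.60). PCNA, the polymerase clamp, fell in WERI (-1.21) and Y79 (-1.73). The ligase LIG1 rose in WERI (1.01) and Y79 (1.18), and so did RPA1 (0.95 in WERI and 0.67 in Y79). The polymerase subunit POLD1 rose in WERI (0.78) and Y79 (1.18). Of 9 genes that work with the ERCC1-ERCC4 nuclease, or beside it as structure-specific nucleases, outside this pathway, 2 rose and 3 fell in WERI (median 0.07), and 1 rose and 6 fell in Y79 (median -0.44; 2 higher without the second THZ1 library). With library-size scaling 1 of these 9 was higher in WERI, beside 2221 over all genes. SLX4, the scaffold that binds ERCC4, fell in WERI (-0.57) and Y79 (-1.02). EME2 rose in WERI (1.32) and Y79 (1.82), and EME1 fell in Y79 (-0.90). SLX1B rose in WERI (0.33), but it has a near-identical copy, SLX1A. With scaling to mitochondrial mRNAs, 0 genes of these 5 lists were higher with THZ1 in either line. Over all genes that scaling gave 111 higher in WERI and 283 in Y79.

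The genes whose pattern was most like that of ERCC4 were sought among 10120 Ensembl genes by the root mean square distance of log2 CPM, centred over the 12 libraries. They were MRPS18A at 0.181, TRIM26 at 0.200, NCOA5 at 0.203, AMOTL2 at 0.213 and RTKN at 0.217. Their log2 fold changes ran from -3.03 for MRPS18A to -2.67 for AMOTL2 in WERI, and from -3.47 for NCOA5 to -2.99 for TRIM26 in Y79, beside -3.15 and -3.35 for ERCC4. These 5 genes were picked for nearness to ERCC4 in the same 12 libraries, so changes of similar size follow from the choice. By Pearson correlation, the other measure, 0 of these 5 were among the first 5, although their r ran from 0.992 to 0.996 over the 12 libraries.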

How the data were processed

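RNA of 12 samples of 2 cell lines was sequenced. Per the labels' protocols the NEBNext Ultra kit was used, which keeps no strand, and the submitters' processing notes name Cufflinks and GRCh38. The sources used here give neither aligner nor counter. The authors deposited whole-number counts per gene, without normalization. Positions are from GENCODE v29 and promoters from RefSeq GRCh38.p14.

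Counts were fitted in R 4.3.3 with edgeR 4.0.16: filterByExpr at its minimum count of 10, TMM factors, and a quasi-likelihood model with robust spread on all 12 libraries with 1 mean per group. This left 14865 Ensembl genes and 3979 unannotated loci. Two-sided p-values had Benjamini-Hochberg adjustment over all features, with a call at an adjusted p under 0.05. SE is the size of the log2 fold change over the square root of F. Figures and sequences used Python 3.11.15 with pandas 2.3.3. The fit was tested on simulated data in which a small share of genes changed and no library stood apart. That cannot show how the calls hold under a broad shift of all genes. DESeq2 1.42.0, other scalings, filters and designs and leaving out each library were tried.

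The members and lists were chosen with earlier results of these data known. The genes named are the 8 members, XPC and DDB2, the 2 genes with the largest called rise and fall per list and line, and the 5 genes most like ERCC4; 1 gene that this rule names is not reported here. Samples with the same replicate number did not deviate together.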

Additional observations from a re-analysis of the deposited data

Results flagged for a closer look

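Of the 7 genes other than ERCC4, 2 had lower THZ1 responses in Y79 by the test of the difference itself (Y79 minus WERI), beside 13.2% of all genes. Without the second THZ1 library of Y79, 4 were lower, while the number lower over all genes went from 1965 to 3029. RAD23B differed by -0.51 on the log2 scale (SE 0.091, edgeR adjusted p = 0.00195). With TMM scaling its THZ1 libraries were lower than DMSO in 3 of 3 Y79 libraries and higher in 3 of 3 WERI libraries. In WERI the RAD23B change was -0.12 with library-size scaling and -1.56 with mitochondrial scaling. The Y79 call of RAD23B was lost in 10 of 22 alternatives. The RAD23B difference was not called with mitochondrial scaling (adjusted p = 0.13). ERCC8 differed by -0.54 (SE 0.167, adjusted p = 0.0381), with THZ1 lower than DMSO in 3 of 3 Y79 libraries and overlapping ranges in WERI. The ERCC8 difference was lost in 10 of 21 alternatives.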

How the results depend on the processing

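With library-size scaling the log2 fold changes of ERCC1 were -0.056 in WERI and -0.22 in Y79 and that of RAD23B in WERI was -0.12, and 2 of the 7 genes other than ERCC4 were higher in WERI. With mitochondrial scaling they were -1.51 (ERCC1), -1.56 (RAD23B), -1.71 (ERCC8), -0.75 (XPA) and -0.69 (DDB1) in WERI, and -1.36 (ERCC1), -0.82 (XPA) and -0.73 (DDB1) in Y79; 7 genes were lower and 0 higher in each line, 0 were lower in the difference, and 5 of 8 were lower in Y79 than in WERI in DMSO. ERCC4 was -3.60 and -5.05 in WERI, and -3.91 and -5.06 in Y79, under these 2 scalings. The cause was not tested. In Y79, 1 gene was lower instead of 3 with RLE factors, with Ensembl genes only and with DESeq2. In the difference 1 was lower instead of 2 without the filter on low counts. With either ERCC5 sum 2 were lower in WERI.

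The replicate numbers did not pair the samples (correlations of -0.074 to 0.006). With the replicate number as a block, RAD23B in Y79 (adjusted p = 0.0523) and ERCC8 in the difference (adjusted p = 0.0668) were not called, so 1 gene was lower in the difference, and no other call of the 8 genes changed. Leaving out 1 library at a time gave 1 gene lower and 4 higher each time in WERI, 1 to 3 lower and 3 higher in Y79, 1 to 4 lower and 0 higher in the difference, and 2 to 3 lower and 2 to 3 higher between the lines.

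Of the lists, library-size scaling gave 1 damage recognition gene higher in WERI, 4 transcription-coupled genes lower and 1 higher in Y79, 5 TFIIH genes lower and 0 higher in WERI, 6 lower and 0 higher in Y79, 3 gap filling genes higher in Y79 and 1 nuclease partner higher in WERI. Mitochondrial scaling gave 6 damage recognition genes lower in WERI, 7 transcription-coupled, 7 TFIIH and 21 gap filling genes lower in each line, 9 nuclease partners lower in WERI and 0 genes higher in any list. Without the second THZ1 library of Y79, an alternative added for the lists after the data had been seen, the Y79 counts were 6 lower and 1 higher (damage recognition), 2 lower and 3 higher (transcription-coupled), 3 lower and 1 higher (TFIIH), 11 lower and 7 higher (gap filling) and 5 lower and 2 higher (nuclease partners). Over all genes that fit gave 6001 lower and 4388 higher in Y79.

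Over all genes, 4115 were higher and 5523 lower in WERI, 2221 and 7961 with library-size scaling, and 111 and 13328 with mitochondrial scaling. In Y79 4439 were higher and 5721 lower, 2175 and 8334 with library-size scaling, and 283 and 12188 with mitochondrial scaling. In the difference 1299 were higher and 1965 lower, 740 and 2696 with library-size scaling, and 2161 and 3029 without the second THZ1 library of Y79; mitochondrial scaling gave 1778 and 713. Between the lines in DMSO, 4802 were higher and 4844 lower, 3641 and 5732 with library-size scaling, and 2706 and 6322 with mitochondrial scaling. By Pearson correlation, 0 of the 5 genes named as most like ERCC4 were the same. The longest transcript in place of summed exons gave DDB1 a level of 178 instead of 57.4 CPM per kb in WERI with THZ1. Depth limits ERCC4 most, with 38 to 73 counts in THZ1 libraries.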
